A study of Mus musculus with 18 samples.

Results

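The mitochondrial ribosomal protein genes were taken as every gene whose symbol begins with Mrpl or Mrps and a digit, pseudogenes left out. This gave 78 of the 30905 genes of the deposited tables, 49 Mrpl genes named for the large subunit and 29 Mrps genes named for the small subunit. Their level was described in the hippocampus (Hip) and the prefrontal cortex (PFC) of the same 9 Kun Ming mice, sampled at an age of 8 weeks. Germ-free (GF) mice had been raised without microbes, specific pathogen-free (SPF) mice carried microbes but were kept free of listed pathogens, and colonized germ-free (CGF) mice were GF mice that had shared an isolator with SPF mice for 4 weeks, with 3 mice in each group. Nuclei came from frozen tissue, and unique molecular identifiers (UMIs) of 10x libraries were counted per gene and nucleus in 18 libraries, 1 for each mouse and region. A nucleus holds little cytoplasmic RNA and no mitochondrion. Yet 0.0491% to 4.87% of the UMIs of a cell type in a library came from the mitochondrial genome. RNA from outside the nucleus was thus present, and its share in the values of these genes was not tested. The values are of transcripts and not of assembled ribosomes or protein.

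Mitochondria carry a ribosome of their own, which translates the few messenger RNAs of the mitochondrial genome into core subunits of the respiratory chain and the ATP synthase. Its protein parts are all encoded in the nucleus, made in the cytosol and imported, while its RNA comes from the mitochondrial genome. Many of these proteins descend from proteins of the bacterial ribosome, and others were added in the mitochondrial lineage. In this numbering, 28 large-subunit and 16 small-subunit genes carry the number of a bacterial protein, and 21 and 13 carry a higher number and are mostly particular to mitochondria. The subunit in a gene's name does not always hold, since the products of Mrps18a and Mrps30 lie in the large subunit and that of Mrps36 is a part of the 2-oxoglutarate dehydrogenase complex.

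The 78 genes lay on 17 chromosomes, with 11 of them on chromosome 11, and were short. The median distance from start to end of the gene (its span, GENCODE on GRCm38) was 7.90 kb, from 0.789 kb for Mrpl34 to 121.8 kb for Mrps28. In every library 76 of the genes had UMIs, and Mrpl2 and Mrpl53 had none in any. The exons of Mrpl2 (chr17:46646229-46650139) and Mrpl53 (chr6:83109040-83109939) are covered to 100% by another annotated gene of the same strand, Gm26904 and Gm42688. Gene bodies of 30 members overlap a gene of the opposite strand, among them Mrpl44 (with Wdfy1), Mrpl24 (with Rrnad1), Mrps26 (with 4930473A02Rik) and Mrpl18 (with Tcp1), and whether the counting used strand is not given in the sources used here.

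Promoters of the genes that led the group comparisons are shown to let their start regions be read beside the values, since the members largely moved together in Hip. They are 300-base windows from 250 bases before to 50 bases after the start (RefSeq, GRCm38.p6, strand of the gene): Mrps12 at chr7:28741772-28742071 (minus strand), Mrps26 at chr2:130563507-130563806 (plus strand), Mrpl41 at chr2:24975049-24975348 (minus strand), Mrpl1 at chr5:96209865-96210164 (plus strand), Mrps9 at chr1:42850983-42851282 (plus strand), Mrps15 at chr4:126046678-126046977 (plus strand), Mrpl44 at chr1:79775768-79776067 (plus strand) and Mrpl24 at chr3:87919294-87919593 (plus strand). Capitals mark matches on either strand to CCGGAAG (an ETS factor motif), GCGCANGCG (NRF1, a regulator of nuclear genes for mitochondria), AAGATGG (YY1) and GGGCGG (the GC box). Each motif was searched by itself, so matches could overlap.
Mrps12: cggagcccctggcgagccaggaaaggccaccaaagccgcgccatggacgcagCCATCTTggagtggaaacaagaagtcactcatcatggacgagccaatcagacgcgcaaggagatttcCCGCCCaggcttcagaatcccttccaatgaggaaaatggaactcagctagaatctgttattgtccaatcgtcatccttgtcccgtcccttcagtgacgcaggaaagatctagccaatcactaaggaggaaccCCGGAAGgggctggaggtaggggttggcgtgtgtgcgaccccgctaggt
Mrps26: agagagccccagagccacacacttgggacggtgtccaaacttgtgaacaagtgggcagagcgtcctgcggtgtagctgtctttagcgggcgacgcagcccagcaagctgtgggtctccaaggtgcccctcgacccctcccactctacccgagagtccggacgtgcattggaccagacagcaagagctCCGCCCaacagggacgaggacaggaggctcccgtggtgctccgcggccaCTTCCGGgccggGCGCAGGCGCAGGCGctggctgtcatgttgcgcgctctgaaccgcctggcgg
Mrpl41: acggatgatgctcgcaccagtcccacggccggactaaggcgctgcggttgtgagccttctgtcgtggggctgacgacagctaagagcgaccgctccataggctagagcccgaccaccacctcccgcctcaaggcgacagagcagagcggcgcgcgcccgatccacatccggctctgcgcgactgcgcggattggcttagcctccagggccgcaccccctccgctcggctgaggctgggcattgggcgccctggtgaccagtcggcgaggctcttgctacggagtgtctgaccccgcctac
Mrpl1: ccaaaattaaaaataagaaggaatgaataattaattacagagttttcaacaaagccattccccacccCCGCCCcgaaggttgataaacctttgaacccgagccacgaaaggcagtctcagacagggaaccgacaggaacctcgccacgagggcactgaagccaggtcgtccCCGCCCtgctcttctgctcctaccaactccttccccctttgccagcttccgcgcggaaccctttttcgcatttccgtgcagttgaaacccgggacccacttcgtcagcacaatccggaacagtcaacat
Mrps9: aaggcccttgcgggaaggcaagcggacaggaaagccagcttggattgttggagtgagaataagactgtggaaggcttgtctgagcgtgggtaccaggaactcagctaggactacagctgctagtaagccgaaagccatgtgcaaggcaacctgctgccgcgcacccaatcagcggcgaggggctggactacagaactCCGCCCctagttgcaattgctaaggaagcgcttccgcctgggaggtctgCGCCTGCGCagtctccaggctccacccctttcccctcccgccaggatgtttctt
Mrps15: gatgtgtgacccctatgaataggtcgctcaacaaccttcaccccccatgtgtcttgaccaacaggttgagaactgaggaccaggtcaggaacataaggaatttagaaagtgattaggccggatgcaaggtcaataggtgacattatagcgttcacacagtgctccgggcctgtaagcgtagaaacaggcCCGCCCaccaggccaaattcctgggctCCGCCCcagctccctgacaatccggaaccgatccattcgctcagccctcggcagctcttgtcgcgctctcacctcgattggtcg
Mrpl44: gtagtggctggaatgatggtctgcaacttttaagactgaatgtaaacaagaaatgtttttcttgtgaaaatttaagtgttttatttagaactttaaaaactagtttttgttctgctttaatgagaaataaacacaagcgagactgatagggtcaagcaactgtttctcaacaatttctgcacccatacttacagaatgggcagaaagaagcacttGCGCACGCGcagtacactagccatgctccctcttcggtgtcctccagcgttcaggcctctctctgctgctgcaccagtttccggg
Mrpl24: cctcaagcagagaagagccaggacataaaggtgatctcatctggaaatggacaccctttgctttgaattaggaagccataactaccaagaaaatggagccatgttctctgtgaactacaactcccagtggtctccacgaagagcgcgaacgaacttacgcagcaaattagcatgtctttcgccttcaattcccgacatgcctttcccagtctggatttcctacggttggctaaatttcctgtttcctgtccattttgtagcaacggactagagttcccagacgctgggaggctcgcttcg

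Such matches were common in the family. Of the 69 members with a window, 26 (37.7%) held the ETS motif, against 9.93% of all 27025 genes with a window. The NRF1 motif stood in 16 members (23.2%, against 7.03%) and the YY1 motif in 13 (18.8%, against 7.28%). At least 1 of these 3 motifs was present in 44 members (63.8%) and in 21.4% of all genes. The 27025 genes were not limited to genes expressed in these nuclei, and a comparison with expressed genes alone was not run. The GC box occurred in 34 members (49.3%, against 38.2%) and TATAAA in 5 (7.25%, against 15.7%). Mrps12, higher in GF mice in both regions, held the ETS, YY1 and GC box motifs, and Mrps15 and Mrpl44, lower in GF mice in PFC, held a pair of GC boxes and an NRF1 match, respectively. Mrps26, higher in GF mice of Hip, held an ETS match, 2 NRF1 matches and a GC box. Mrps9, lower in GF excitatory neurons of both regions, held an NRF1 match and a GC box. Whether motifs go with the direction of change was not tested. In excitatory neurons Mrpl41 and Mrpl24 were higher in GF mice of Hip and lower in those of PFC. Their windows held none of these motifs, and that of Mrpl1 held GC boxes alone, as did that of Mrps15. A match is a run of letters and not a measured binding site.

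After a filter on genes and mitochondrial UMIs, 138000 nuclei remained and 121396 were placed by marker genes into excitatory neurons, interneurons, astrocytes, oligodendrocytes, oligodendrocyte precursor cells (OPCs) and microglia. Between 3.68% and 12.8% of nuclei of a library met no marker rule, except in the Hip library of GF mouse 6, where 20.1% did not. Hip libraries held 49067853 to 63217083 UMIs, but their depth per nucleus differed by group. The median excitatory nucleus of a GF mouse had 6486 to 6829.5 UMIs in Hip. For SPF mice this median was 8618 to 9658, and for CGF mice it was 7697.5 to 10331. It was lower in GF than in SPF mice without overlap in every type of Hip but microglia. In PFC the GF libraries held 59126586 to 71463928 and the SPF and CGF libraries 20336250 to 26949210, so that in PFC depth cannot be told apart from the GF group. Libraries shared 6 to 29 barcodes a pair, at most 0.362% of the smaller library. Nearly every nucleus held a member UMI, from 98.4% to 99.9% in libraries of Hip and from 91.0% to 99.8% in those of PFC.

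The markers of each type were present in its sum, which the gate itself brings about, since the same lists placed the nuclei. Levels are given as CPM, the UMIs of a gene or list per 1000000 UMIs of the sum. Astrocyte markers were at 15184 to 24594 CPM in astrocytes, oligodendrocyte markers 11532 to 16892 in oligodendrocytes and microglial markers 7455 to 12079.9 in microglia. Excitatory markers were at 2371 to 3825 CPM in excitatory neurons and at 491 to 1149 in the other types. In Hip astrocytes they were at 574 to 602 CPM in GF mice and 738 to 938 in SPF mice, and in Hip oligodendrocytes at 500 to 577 and 721 to 919. In PFC astrocytes they were at 504 to 597 in GF and 739 to 998 in SPF mice. Excitatory markers were lower in GF than in SPF mice without overlap in 4 of the 5 other types of each region, except in interneurons of Hip and microglia of PFC. The markers of interneurons themselves were at 10652 to 11210 CPM in GF mice of PFC and 6417 to 7624 in SPF and CGF mice, and in Hip at 9276 to 11166 in GF and 11210 to 14477 in SPF and CGF mice. The own markers of a type also lay apart between GF and SPF mice in Hip microglia (10368 to 11090 against 7455 to 8956), Hip oligodendrocytes (15657 to 16439 against 11532 to 13723) and Hip OPCs (10589 to 11774 against 13156 to 14463). In PFC they were higher in GF mice without overlap in astrocytes, oligodendrocytes and microglia and lower in excitatory neurons. The part of these shifts in the values of the members was not tested.

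In the Hip of SPF mice, the level of members in excitatory neurons covered a wide range. On the CPM scale the highest were Mrpl48 (47.7), Mrps9 (44.3) and Mrpl1 (42.8, which forms the mobile L1 stalk of the large subunit), and the median member was at 10.5. The 5 highest members took 19.5% of the summed mean CPM of all members. Divided by gene span, the order changed. Mrpl41 was highest, at 22.5 ± 2.25 CPM per kb (SD, n = 3 mice), followed by Mrpl43 at 6.94 ± 1.55, Mrpl34 at 5.81 ± 2.60, Mrps12 at 5.21 ± 1.27 and Mrpl57 at 3.48 ± 0.870. The mice of Mrpl43, Mrpl34 and Mrps12 overlapped, so their order is within the spread, while every mouse of Mrpl41 lay above all of them. Mrpl33 (0.307), Mrps27 (0.270) and Mrps28 (0.235 CPM per kb) were lowest. These span 67.45, 70.78 and 121.8 kb and ranked 11, 18 and 5 by CPM, so their place rests on the divisor. Mrpl34, which spans 0.789 kb, ranked 69 by CPM. Whether UMIs scale with span was not tested beyond the following correlation. The level in CPM rose with span across the 76 detected members (Spearman's rho 0.47, a description across genes, which are not replicates).

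The first question was whether mice without microbes differ from SPF mice. In Hip, all member UMIs summed were higher in GF than in SPF mice in each of the 6 cell types, at 1.84 to 1.93 times the SPF level. In excitatory neurons the 3 GF mice held 1727, 1820.0 and 1933 CPM of member UMIs, the SPF mice 920.1, 966 and 1086, and the CGF mice 903, 914 and 1055. GF mice thus lay above all others, and SPF and CGF mice overlapped. Microglia had the highest mean level of the 6 types in each group of Hip. Their GF mice held 3685, 3884 and 4248 CPM of member UMIs, and their SPF mice 1931, 2091 and 2266. GF and SPF mice overlapped in none of the 6 types, and the exact two-sided permutation test gave p = 0.1 in each, the smallest p that 3 against 3 mice allow. The 6 types of a library share their nuclei preparation and are not independent of each other. Mitochondrial-genome UMIs moved with the same groups. In Hip excitatory neurons they were at 4402 to 7932 CPM in GF mice, 903 to 3684 in SPF mice and 491 to 1497 in CGF mice, and GF mice lay above both other groups in every type but interneurons, where GF and SPF mice overlapped. With mitochondrial-genome UMIs and the 20 most abundant genes left out of the total, the ratio of GF to SPF mice was 1.88 to 2.03 in the 6 types.

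In PFC the same sum differed by cell type. Excitatory neurons of GF mice held 1248, 1389 and 1411 CPM of member UMIs and those of SPF mice 1304, 1489 and 1528, a ratio of 0.937 with overlap (exact permutation p = 0.4). Interneurons overlapped too, at a ratio of 1.10 (exact p = 0.2), but with mitochondrial-genome UMIs and the 20 most abundant genes left out of the total they did not, at 1942 to 2139 in GF and 1692 to 1914 in SPF mice. In glia the GF mice were higher without overlap, by 1.37 times in astrocytes, 1.45 times in oligodendrocytes, 1.39 times in OPCs and 1.80 times in microglia (exact p = 0.1 in each). With that total the ratio of GF to SPF mice was 0.982 in excitatory neurons and 1.65 in microglia. Microglia held 2772, 3279 and 3615 CPM of member UMIs in GF mice and 1680, 1731 and 1967 in SPF mice. Large-subunit genes gave 53.99% to 66.3% of member UMIs in every sum of either region.

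**Figure D1:**
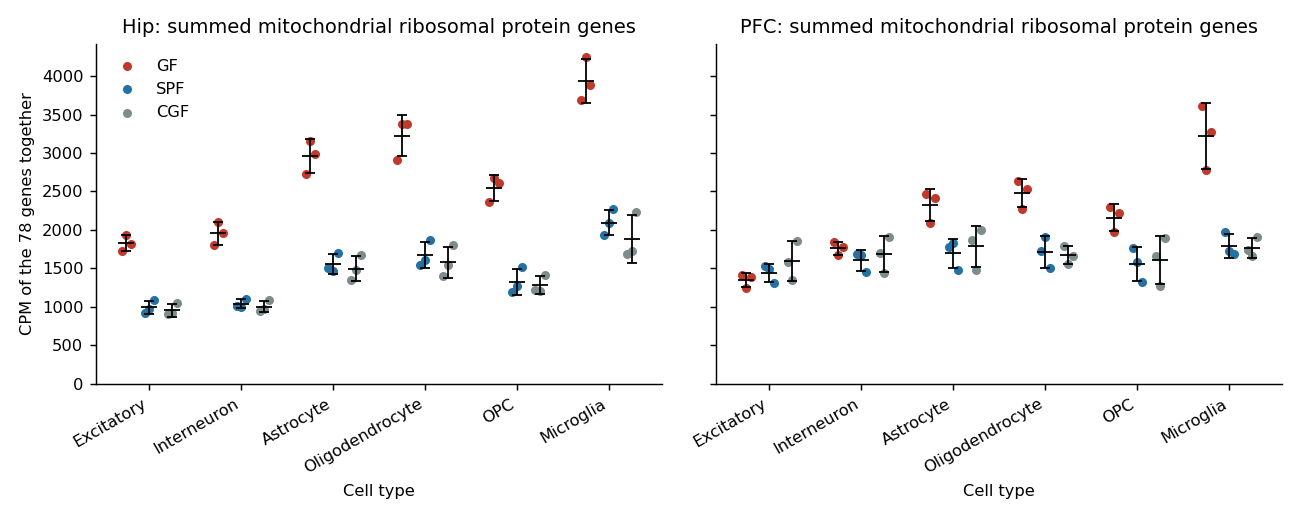
CPM of the 78 genes together (y axis) by cell type (x axis) in Hip and PFC, with a point for each mouse of the GF, SPF and CGF groups and black bars for mean and SD (n = 3). In Hip the GF mice lie above all other mice in each type, and in PFC they do so in the 4 glial types.

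Gene by gene, the rise in Hip took in most of the family. The test was edgeR's quasi-likelihood test on UMIs summed per mouse and type, with p-values adjusted over all genes tested (Benjamini-Hochberg, threshold 0.05). Of the members tested in excitatory neurons, 59 of 76 were higher and 2 lower in GF mice, against 24.9% of all genes called higher. In interneurons 57 of 76 were higher (all genes 21.8%), in astrocytes 56 of 76 (18%), in oligodendrocytes 55 of 75 (20.1%), in OPCs 38 of 67 (12.4%) and in microglia 29 of 57 (13.8%). Over the 6 types this made 294 of 427 tests higher and 5 lower, while 19.6% of the tests of all genes were higher and 16.8% lower. The median log2 fold change of members was 0.88 to 1.03 in the 6 types, and that of all genes tested -0.04 to 0.04. A member could enter a test through a high GF level alone, so the counts cover members above the filter on low counts and not all 78.

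The rise covered each class of protein. In excitatory neurons 23 of 27 bacterial-type and 16 of 20 mitochondria-specific large-subunit genes were higher, with median log2 fold changes of 0.90 and 0.98. In the small subunit 11 of 16 bacterial-type and 9 of 13 mitochondria-specific genes were higher, with medians of 0.85 and 0.71. In microglia the medians of these 4 classes were 0.77, 1.09, 0.81 and 1.06. Of the 57 members tested in all 6 types, 23 were higher in all 6, 17 in 5 and 7 in none. Of all genes tested in all 6 types, 7.87% were higher in 6, 4.59% in 5 and 64.7% in 0. Those higher in 6 types included Mrps12, Mrps14, Mrps16, Mrps26, Mrpl11, Mrpl20 and Mrpl57, and those higher in none were Mrpl1, Mrpl3, Mrpl10, Mrpl13, Mrpl48, Mrps5 and Mrps9.

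**Figure D2:**
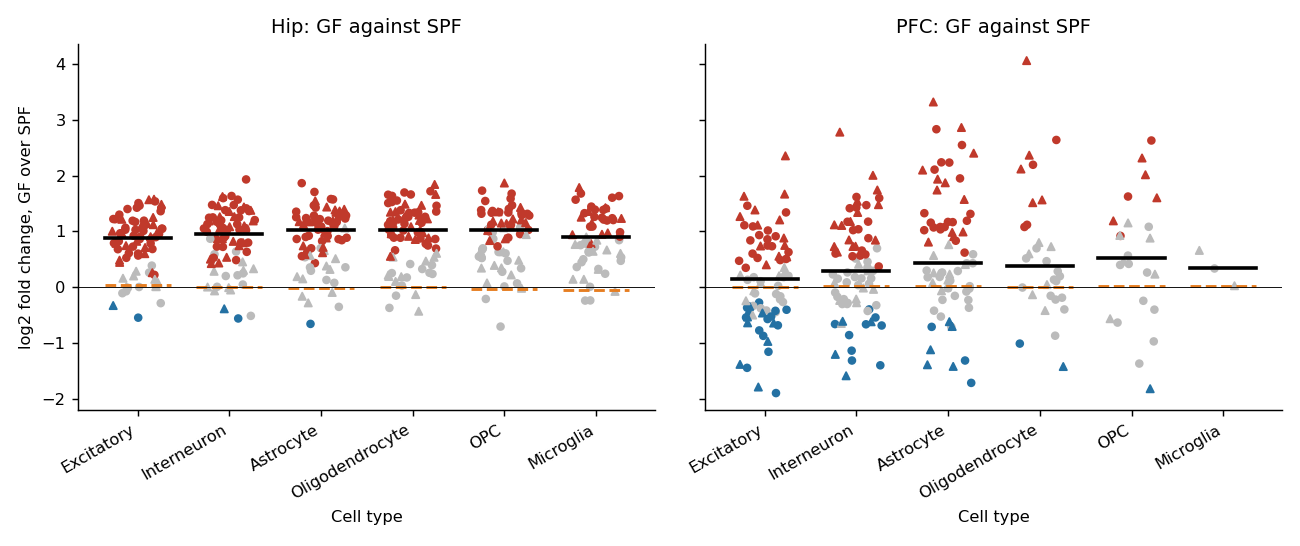
log2 fold change of GF over SPF mice (y axis) of each member tested, by cell type (x axis), in Hip and PFC. Circles are Mrpl and triangles Mrps genes, red is higher, blue lower and grey not past the threshold; black lines are medians of members and dashed orange lines medians of all genes. In Hip the black lines lie at 0.88 to 1.03, and in PFC at 0.16 in excitatory neurons and 0.52 in OPCs.

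Mrps12, the protein of the decoding centre that guards accuracy of translation, was among the most raised. In excitatory neurons of Hip it was at 32.2, 36.8 and 35.3 CPM (scaled by TMM, edgeR's library normalization) in GF mice, 10.1, 10.1 and 14.6 in SPF mice and 9.44, 9.20 and 11.8 in CGF mice. The GF mice stood apart, and the other groups overlapped. Its log2 fold change of GF over SPF was 1.58 ± 0.15 (SE; edgeR adjusted p = 9.25e-05). In oligodendrocytes of Hip Mrps12 rose by 1.84 ± 0.21 on the log2 scale (edgeR adjusted p = 1.18e-05).

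Mrps26, a mitochondria-specific protein of the small subunit, was at 43.4, 45.8 and 42.2 TMM-scaled CPM in GF excitatory neurons and at 13.9, 14.9 and 15.5 in SPF ones. The groups did not overlap and the mice of a group lay close together (log2 fold change 1.57 ± 0.09, edgeR adjusted p = 2.29e-05). In OPCs it rose by 1.87 ± 0.26 (edgeR adjusted p = 4.37e-05). Mrpl41, also without a bacterial counterpart, was at 61.2, 76.5 and 56.3 in GF and 20.6, 23.3 and 24.2 in SPF excitatory neurons. Its GF values were the more spread, yet all lay above the SPF values (log2 fold change 1.51 ± 0.13, edgeR adjusted p = 6.04e-05), and in interneurons it rose by 1.64 ± 0.15.

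Mrpl11, which builds the base of the stalk that binds translation factors, was among the leading rises in interneurons, astrocytes and microglia of Hip. Its log2 fold change was 1.93 ± 0.22 in interneurons, 1.87 ± 0.18 in astrocytes and 1.68 ± 0.36 in microglia of Hip, where the GF mice held 73.9, 74.3 and 47.7 and the SPF mice 12.2, 16.8 and 34.2 TMM-scaled CPM. All GF microglial values lay above the SPF ones (edgeR adjusted p = 0.000986). Mrps16 in microglia (1.79 ± 0.40), Mrpl57 in astrocytes (1.71 ± 0.24), Mrpl18 in oligodendrocytes (1.72 ± 0.27) and Mrpl24 in OPCs (1.73 ± 0.41) were the other leading rises on the log2 scale.

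The members that fell in Hip were Mrpl1 and Mrps9. Mrpl1 was at 31.01, 29.4 and 30.04 TMM-scaled CPM in GF excitatory neurons, 44.4, 45.5 and 42.1 in SPF ones and 52.6, 49.9 and 45.9 in CGF ones. GF mice lay below both other groups (log2 fold change GF over SPF -0.55 ± 0.07, edgeR adjusted p = 0.000242), and Mrpl1 also fell in interneurons (-0.56 ± 0.14) and astrocytes (-0.66 ± 0.16). Mrps9, a protein of the small subunit head, was at 37.9, 34.9 and 35.7 in GF and 43.4, 47.1 and 45.7 in SPF excitatory neurons. It fell by 0.33 on the log2 scale there (SE 0.06, edgeR adjusted p = 0.00150) and by 0.39 in interneurons (SE 0.10).

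Gene span moved with these differences. In excitatory neurons of Hip, the 24 members under 5 kb had a median log2 fold change of 1.19 (all genes of that span 0.72), the 27 of 5 to 10 kb 0.82 (0.43), the 14 of 10 to 20 kb 0.75 (0.21), the 4 of 20 to 50 kb 0.22 (-0.03) and the 7 over 50 kb 0.01 (-0.30). Both Mrpl1 (57.2 kb) and Mrps9 (54.5 kb) belong to the longest. Across genes Spearman's rho of span and fold change was -0.67 for the 76 members and -0.52 for all genes, which share the same libraries. In PFC the value was -0.20 for members and 0.00 for all genes.

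**Figure D3:**
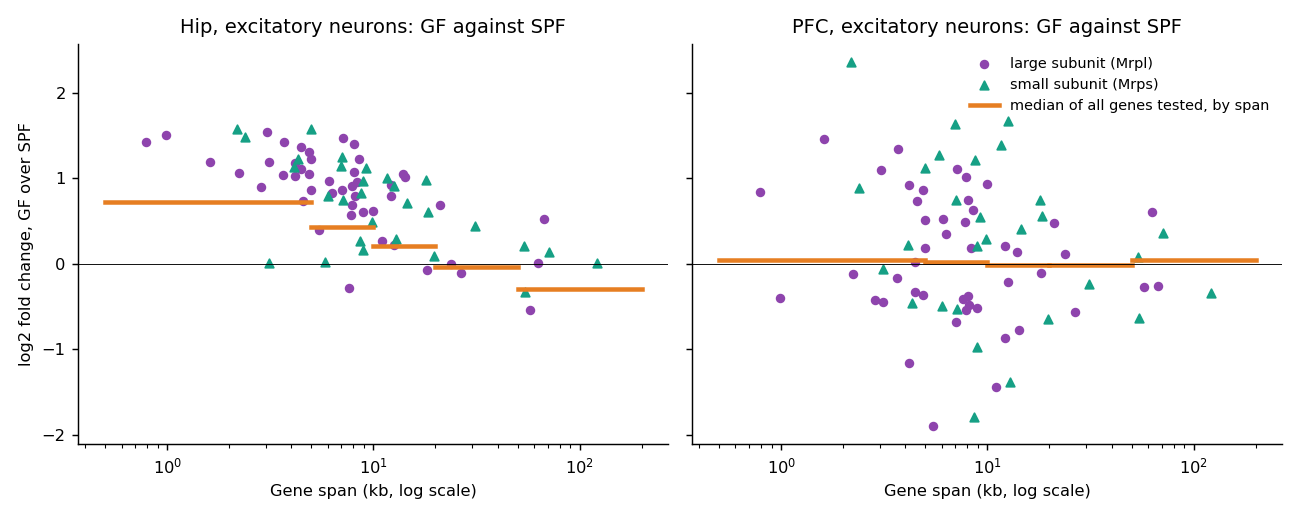
log2 fold change of GF over SPF mice in excitatory neurons (y axis) against gene span in kb (x axis, log scale), with circles for Mrpl and triangles for Mrps genes and orange lines for the median of all genes in each range of span. In Hip both members and all genes run downward with span (medians of members from 1.19 to 0.01). In Hip the medians of members lie above the orange lines, and single members such as Mrpl1 lie below. In PFC the medians of members lie below the orange lines at 20 to 50 kb (-0.07 against -0.02) and over 50 kb (-0.26 against 0.04).

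When each sum was freed of its trend on length and GC content of genes, fewer members passed. In Hip, 149 of 427 tests were then higher and 8 lower, against 12.6% and 9.77% of the tests of all genes. The medians of members were 0.29 to 0.55, with 46 of 76 higher in excitatory neurons (all genes 17.2%). In OPCs 5 of 67 (all genes 5.76%) and in microglia 6 of 57 (all genes 9.62%) were higher, shares near those of all genes. In excitatory neurons Mrps12 was then at 0.90, Mrps26 at 1.06 and Mrpl41 at 0.76 on the log2 scale, and Mrpl1 at -0.38, each still past the threshold, whereas Mrps9 at -0.17 was not (edgeR adjusted p = 0.0610). The calls of Mrps9 in interneurons (-0.24), Mrpl1 in astrocytes (-0.45), Mrpl24 in OPCs (0.996) and Mrpl11 and Mrps16 in microglia (0.995 and 1.07) were lost as well (edgeR adjusted p = 0.0593 to 0.132). The share of members whose 3 GF and 3 SPF values did not overlap in excitatory neurons was 64 of 76 in Hip (all genes 56.4%) and 63 of 76 in PFC (all genes 70.1%).

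In PFC the members split. In excitatory neurons 31 of 76 were higher and 22 lower in GF mice (all genes 31.8% and 30.8%), in interneurons 31 higher and 13 lower of 76 (27.3% and 25.8%), and in astrocytes 31 higher and 8 lower of 69 (23.5% and 23.2%). Over the 6 types 109 of 278 tests were higher and 46 lower (all genes 25.5% and 24.9%). With the trend on length and GC content removed, 78 were higher and 77 lower (all genes 21.4% and 28.2%). Members were then split evenly, and all genes had moved toward lower as well. Only 30 members could be tested in oligodendrocytes, 24 in OPCs and 3 in microglia, where shallow SPF and CGF sums held 100 to 258 member UMIs. None of the 3 passed in microglia by edgeR or DESeq2, and none had an unadjusted p under 0.05. Mitochondrial-genome UMIs moved as well, at 2693 to 7348 CPM in the GF sums of PFC and 10098 to 48701 in SPF and CGF sums, so that GF mice were lower.

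Mrps12 rose in PFC as in Hip. It was at 31.4, 24.3 and 31.1 TMM-scaled CPM in GF excitatory neurons, 5.49, 6.67 and 4.75 in SPF ones and 9.15, 7.48 and 8.21 in CGF ones. All GF mice lay far above the others (log2 fold change GF over SPF 2.36 ± 0.16, edgeR adjusted p = 1.53e-07). The log2 fold change was 2.78 ± 0.27 in interneurons, 3.32 ± 0.32 in astrocytes and 4.06 ± 0.55 in oligodendrocytes, where 1 SPF mouse held no UMI of the gene. In OPCs SPF mouse 31 held 35.9 and the other SPF mice 0 and 4.70, against 46.6 to 85.5 in GF mice (2.32 ± 0.57). Mrps14 and Mrps10, both of the small subunit head, also rose, Mrps14 by 2.86 ± 0.28 in astrocytes and 2.01 ± 0.20 in interneurons and Mrps10 by 1.67 ± 0.14 in excitatory neurons. In oligodendrocytes Mrpl57 (2.64 ± 0.47) came after Mrps12, and in OPCs Mrpl20 (2.63 ± 0.51) rose most.

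Mrps15, a small-subunit protein that binds ribosomal RNA, fell in PFC. It was at 19.3, 15.4 and 20.02 in GF excitatory neurons, 76.3, 58.4 and 54.6 in SPF ones and 42.9, 57.4 and 57.5 TMM-scaled CPM in CGF ones. GF mice were below every other mouse (log2 fold change -1.79 ± 0.16, edgeR adjusted p = 1.57e-06). It fell likewise in interneurons (-1.59 ± 0.17), oligodendrocytes (-1.42 ± 0.40) and OPCs (-1.82 ± 0.40). In Hip the same gene was at 19.3, 21.1 and 21.9 in GF and 16.4, 17.9 and 17.7 in SPF excitatory neurons, a small rise (0.26 ± 0.09, edgeR adjusted p = 0.0395).

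Mrpl44, a large-subunit protein with a fold of the RNase III family, was at 4.39, 3.30 and 4.34 TMM-scaled CPM in GF and 13.1, 15.98 and 15.7 in SPF excitatory neurons of PFC. The groups were apart (-1.90 ± 0.19, edgeR adjusted p = 3.33e-06), and in interneurons it fell by 1.40 (SE 0.31). In astrocytes Mrpl37 (-1.71 ± 0.32) and Mrps22 (-1.42 ± 0.34) fell most. In Hip excitatory neurons Mrpl44 was at 4.33 to 4.53 in GF and 2.77 to 4.57 in SPF mice, with overlap (edgeR adjusted p = 0.133).

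Mrpl24 went opposite ways in the regions. In Hip excitatory neurons it was at 14.8, 17.2 and 14 TMM-scaled CPM in GF and 6.05, 6.59 and 7.79 in SPF mice, and in PFC at 13.1, 14.2 and 11.5 in GF and 31.2, 30.6 and 24.6 in SPF mice. The GF mice were close in the regions, and the SPF mice differed. Its log2 fold change was 1.17 ± 0.13 in Hip and -1.16 ± 0.17 in PFC. Mrpl41 was likewise higher in Hip and lower in PFC, where GF mice held 56.2, 57.3 and 51.0 and SPF mice 76.0, 70.3 and 71.2 (-0.40 ± 0.13, edgeR adjusted p = 0.0188). Of the 76 members in excitatory neurons, 29 were higher in both regions, 13 were higher in Hip and lower in PFC, and 2, Mrpl1 and Mrps9, were lower in both. Of all genes tested in both regions, 12.8% were higher in both, 6.12% higher in Hip and lower in PFC and 8.15% lower in both. The larger joint shares of members go with the larger number raised in Hip, 59 of 76. Of the 4673 genes raised in Hip among all genes, 2179 were higher and 1043 lower in PFC, a split like that of the members.

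**Figure D4:**
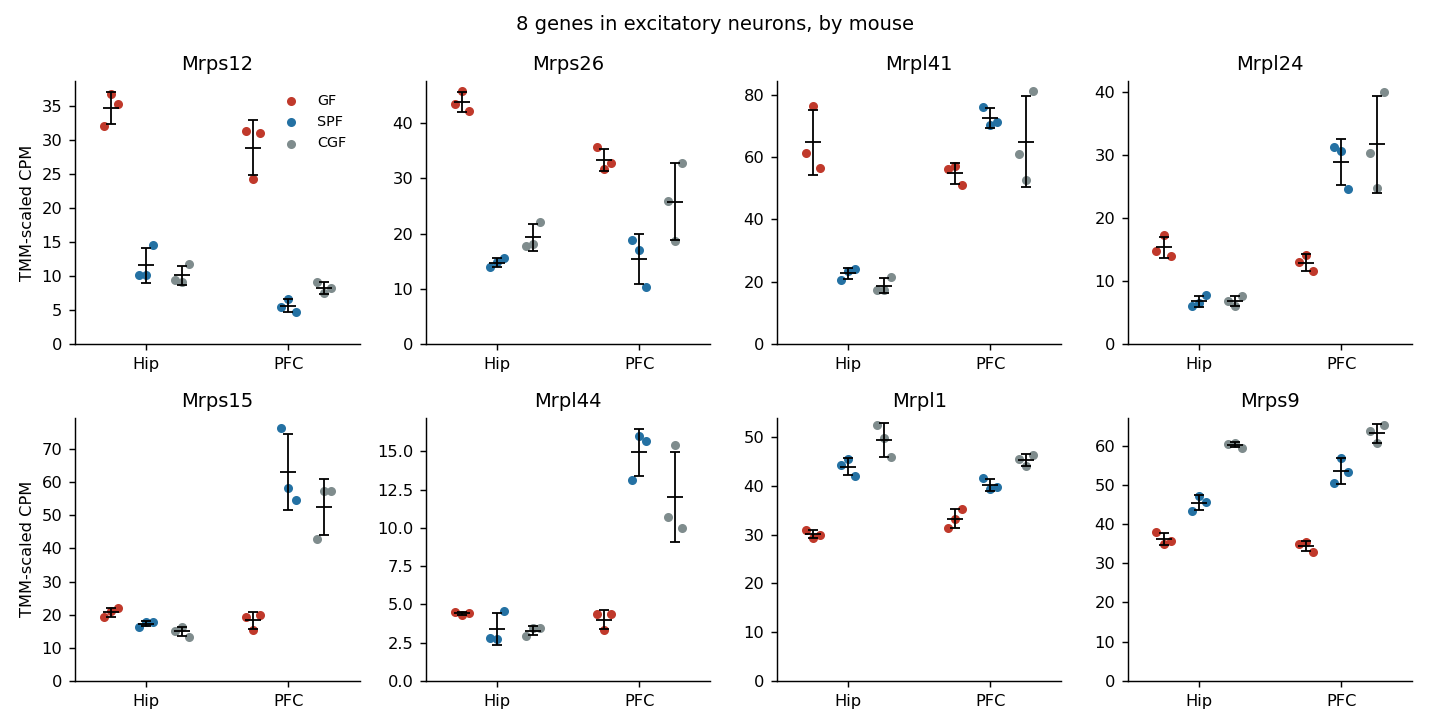
TMM-scaled CPM (y axis) of 8 genes in excitatory neurons by region (x axis), with a point for each GF, SPF and CGF mouse and black bars for mean and SD (n = 3). Mrps12 and Mrps26 are high in GF mice of both regions, whereas Mrps15 and Mrpl44 are low in GF mice of PFC (18.2 and 4.01 on average).

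The difference between regions was tested as the interaction of group and region in a fit of all 18 libraries. It passed in 106 of 430 tests of members, 90 toward a larger GF over SPF fold change in Hip and 16 toward PFC, against 14.2% and 16.6% of all genes. In excitatory neurons it passed in 37 and 7 of 76 (all genes 22.7% and 29.5%). The largest in excitatory neurons was that of Mrpl24 (2.27 ± 0.23, edgeR adjusted p = 3.67e-07). With the mouse as a block, 91 and 19 passed. Of the 430 tests, 152 were of members below the filter on low counts when PFC was fitted by itself, and 4 of the 106 calls were among these.

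The regions were also compared within a group. In GF mice Hip was higher than PFC in 40 and lower in 1 of 430 tests (all genes 5.53% and 5.66%), led in excitatory neurons by Mrpl45, the anchor of the ribosome to the inner membrane, at 42.6 in Hip and 19.1 TMM-scaled CPM in PFC (log2 difference 1.16 ± 0.11, edgeR adjusted p = 6.63e-07). Without GF mouse 6 only 5 were higher and none lower, without GF mouse 5 the calls were 27 and without GF mouse 7 they were 16. In SPF mice Hip was higher in 45 and lower in 92 tests (all genes 23% and 21.1%). Mrpl44 was at 3.59 ± 1.03 in Hip and 14.3 ± 1.498 in PFC of SPF mice (log2 difference -1.99 ± 0.19), and Mrps18c at 10.1 ± 0.94 and 3.67 ± 0.482 (1.46 ± 0.17). In SPF mice Hip libraries were deeper than PFC libraries, and the part of depth was not tested.

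Colonized mice address whether the difference from GF mice is found again after a microbiota was given at a later age. The comparison uses the same GF mice as that with SPF mice and is not independent of it. GF over CGF, the summed level was 1.91 to 2.09 times higher in the 6 types of Hip, without overlap, and 0.846 to 1.82 times in PFC, with overlap in both neuron types. By edgeR 299 of 427 tests were higher and 8 lower in Hip (all genes 20.2% and 17.6%) and 98 higher and 50 lower of 278 in PFC (all genes 25.6% and 24.5%). With the trend on length and GC content removed these became 163 and 12 in Hip (all genes 13.2% and 9.49%) and 70 and 74 in PFC (all genes 22.2% and 27.5%), where all genes moved toward lower too. In PFC microglia Mrps33 alone passed (1.56 ± 0.49, edgeR adjusted p = 0.0120), with CGF mice at 8.72, 63.5 and 146 and GF mice at 214, 102 and 140 TMM-scaled CPM, which overlap.

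CGF and SPF mice differed in few tests. Their summed levels overlapped in all 6 types of both regions, with ratios from 0.898 to 0.966 in Hip and from 0.976 to 1.11 in PFC (exact permutation p = 0.3 to 0.8). By edgeR 1 of 427 tests passed in Hip (all genes 0.32%) and none of 278 in PFC (all genes 0.186%). At an unadjusted p under 0.05 there were 35 in Hip (all genes 10.6%) and 17 in PFC (all genes 10.2%), a smaller share of members than of all genes, and DESeq2 called 2 and 0. The gene called was Mrps9 in excitatory neurons of Hip, at 60.5, 60.6 and 59.5 TMM-scaled CPM in CGF and 43.4, 47.1 and 45.7 in SPF mice (log2 fold change 0.41 ± 0.06, edgeR adjusted p = 0.0243). The call was lost when any 1 of the CGF mice, or SPF mouse 30 or 32, was left out.

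Cell types were compared within libraries, each type against the mean of the other 5, with the library as a block. In Hip, members were mostly lower in neurons. Excitatory neurons had 10 of 76 higher and 53 lower (all genes 39.2% and 41.2%), and interneurons 10 and 53 (33.2% and 45.2%). Oligodendrocytes had 51 higher and 2 lower (34.2% and 33.1%), astrocytes 37 and 5 (33.5% and 31.1%), microglia 34 and 4 (30% and 34.6%) and OPCs 3 and 3 (20.9% and 20.6%). The median log2 difference of members was -0.39 in excitatory neurons, -0.47 in interneurons, 0.20 in astrocytes, 0.37 in oligodendrocytes and 0.34 in microglia.

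In PFC fewer members passed between cell types. Of 71 members, 6 were higher and 45 lower in excitatory neurons (all genes 34.8% and 39%), 9 and 32 in interneurons (32.6% and 34.5%), 11 and 3 in astrocytes (26.1% and 29%), 18 and 2 in oligodendrocytes (24% and 27.1%), 2 and 3 in OPCs (19.3% and 16.3%) and 28 and 4 in microglia (26% and 31.4%). The share of members higher was below that of all genes in astrocytes and near it in oligodendrocytes. The median log2 difference of members was -0.38 in excitatory neurons, -0.24 in interneurons, 0.09 in astrocytes, 0.19 in oligodendrocytes and 0.39 in microglia. Removing the trend on length and GC content, an alternative chosen after seeing the data, turned astrocytes to 3 higher and 25 lower in Hip (all genes 21.9% and 45.6%) and 4 and 16 in PFC (19.6% and 44.9%), so that all genes moved toward lower there as well. Oligodendrocytes in Hip then had 29 higher and 8 lower (all genes 31.4% and 33.3%) and microglia 34 and 3 (37.4% and 23.8%).

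**Figure D5:**
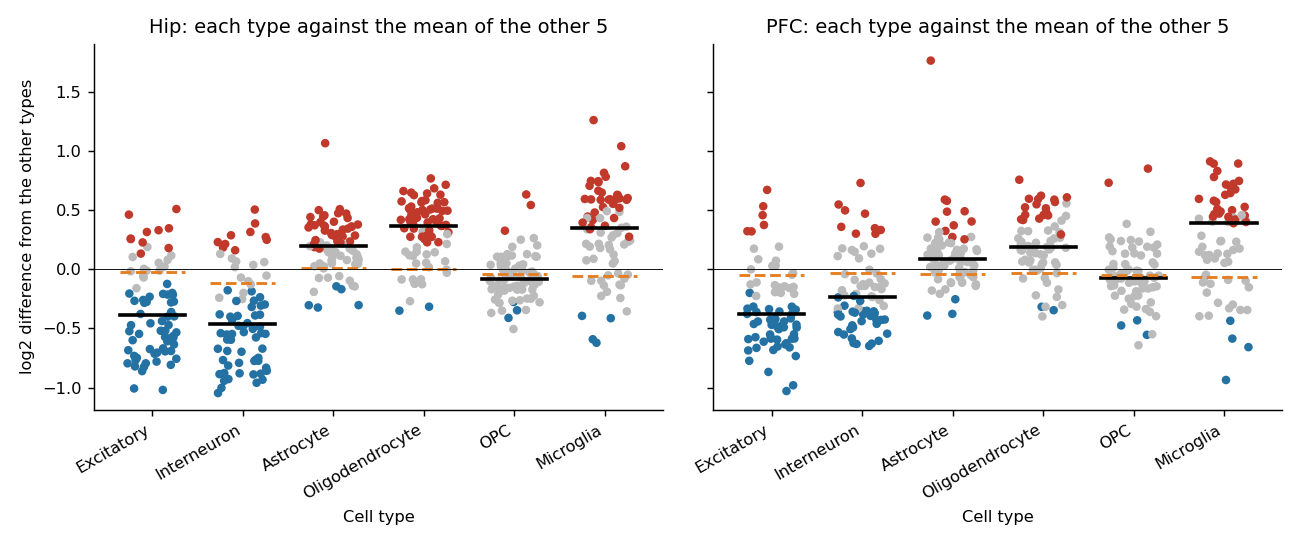
log2 difference of each member between a cell type and the mean of the other 5 types (y axis) by cell type (x axis) in Hip and PFC, with red for higher, blue for lower and grey for not past the threshold. Black lines are medians of members (from -0.47 in interneurons to 0.37 in oligodendrocytes of Hip) and dashed orange lines medians of all genes.

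Some members departed from the family. Mrpl18 was the astrocyte gene of the set. In Hip it was at 24.8 to 47.1 TMM-scaled CPM over the 9 mice in astrocytes (median 36.3), against a mean of 20.6 in the other types (log2 difference 1.06 ± 0.11, edgeR adjusted p = 5.50e-13). In PFC astrocytes it reached 32.5 to 130 with a median of 70.0, against 17.3 (1.76 ± 0.18, edgeR adjusted p = 5.57e-13). Mrpl33, higher in Hip astrocytes by 0.51 ± 0.08, and Mrps30, higher in PFC astrocytes by 0.59 ± 0.16, followed it.

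Neurons had their own few. Mrps27, an RNA-binding protein of the small subunit, was higher in excitatory neurons of Hip (19.4 to 36.7 TMM-scaled CPM, 0.51 ± 0.07 on the log2 scale) and in interneurons (0.39 ± 0.08). Mrpl1 in excitatory neurons (0.46 ± 0.06) and Mrpl47 in interneurons of Hip (0.50 ± 0.11) were also higher. Without TMM, Mrpl1 was at 0.12 there and lost the threshold (edgeR adjusted p = 0.0549). In PFC, Mrpl41 (0.67 ± 0.08) and Mrpl3 (0.53 ± 0.09), a protein near the peptidyl transferase centre, led in excitatory neurons, and Mrpl45 (0.73 ± 0.08) and Mrps35 (0.55 ± 0.10) in interneurons.

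In microglia of Hip, Mrpl44 (1.26 ± 0.23) and Mrpl34 (1.04 ± 0.15) led, with Mrpl44 at 2.07 to 26.4 (median 12.8) TMM-scaled CPM and a mean of 5.99 in the other types, so that single mice overlapped. In PFC microglia Mrpl49 (0.91 ± 0.28) and Mrps33 (0.89 ± 0.15) led. Mrpl34 (0.77 ± 0.11) and Mrpl57 (0.71 ± 0.08) led in Hip oligodendrocytes, Mrpl34 (0.76 ± 0.20) and Mrpl30 (0.62 ± 0.16) in PFC oligodendrocytes, and Mrps7 and Mrpl52 in OPCs of Hip (0.63 ± 0.11 and 0.54 ± 0.13) and PFC (0.73 ± 0.16 and 0.85 ± 0.15). Mrpl52 in Hip OPCs lost the threshold with a stricter gate (0.38, edgeR adjusted p = 0.0535) and with no library term (0.52, edgeR adjusted p = 0.0577). Mrpl34 in PFC oligodendrocytes lost it with no library term (0.77, edgeR adjusted p = 0.0553).

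Other genes of mitochondrial translation, from lists set beside the members, gave a mixed picture in GF against SPF mice. Mitoribosome proteins with other names, such as Dap3, a GTP-binding protein of the small subunit, were higher for 4 and lower for 0 of 5 in Hip excitatory neurons (median 0.80) and 1 and 3 of 5 in PFC. Assembly and rRNA-modification factors were higher for 11 and lower for 1 of 20 in Hip and 7 and 4 of 20 in PFC. Translation factors were higher for 3 and lower for 2 of 11 in Hip and 2 and 3 of 11 in PFC, and tRNA synthetases 2 and 7 of 17 in Hip and 4 and 8 of 17 in PFC. The messenger RNAs of the mitochondrial genome were higher for 8 and lower for 0 of 13 in Hip (median 1.43) and lower for 13 of 13 in PFC (median -2.20). All those tested in the other types of PFC were lower too. These counts are read against the 24.9% of genes higher and 21.1% lower in Hip and 31.8% higher and 30.8% lower in PFC excitatory neurons.

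Lars2, the mitochondrial leucyl-tRNA synthetase, fell in GF mice, by 1.06 on the log2 scale in Hip excitatory neurons (28.4 ± 2.05 against 59.2 ± 10.6 TMM-scaled CPM) and by 4.03 in PFC (33.0 ± 1.65 against 539 ± 149). In PFC microglia it fell by 5.22 (51.1 ± 18.9 against 1947 ± 442). All members summed were at a mean of 1793 CPM (not TMM-scaled) in the same SPF microglia. Whether all UMIs counted to Lars2 came from its messenger RNA was not tested. Mtif3, a translation initiation factor, rose in Hip excitatory neurons by 1.64 ± 0.14, and mt-Nd6 by 2.18 ± 0.49. In PFC, Mrm2, a methyltransferase of the large ribosomal RNA, rose by 1.66 ± 0.28 in excitatory neurons and Gfm2 by 1.09 ± 0.39 in microglia.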

How the data were processed

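Frozen Hip and PFC of 9 mice gave 18 single-nucleus 10x libraries. The deposited matrices hold raw counts of UMIs, which the authors made with Cell Ranger (3.1.0 per the file headers) on mm10 and did not normalize. The kit version differs between the sources used here, and whether intronic reads were counted is not given in them.

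Nuclei needed at least 200 genes and at most 10% of UMIs from the mitochondrial genome. Each nucleus was placed by its highest marker score, scaled to the 99.7th percentile, if 2 markers were present and the next score was at most 0.8 of it. No doublet caller was run, and 11202 nuclei stayed unassigned (8.12%), with 9110 near the limit of the gate. Counts were summed per library and type and tested with edgeR 4.0.16 (R 4.3.3; filterByExpr, TMM, glmQLFit, glmQLFTest) with the 3 groups of a region in 1 model and Benjamini-Hochberg adjustment across every gene tested. The study's own test treats nuclei as replicates, so the mouse was used here. Standard errors were taken from the log2 fold change and the F statistic. The fits were tested on simulated data. Summed levels were compared by exact permutation (scipy 1.17.1). Gene spans came from GENCODE vM21, which held 30843 of the 30905 genes (99.8%), and promoters from RefSeq. 

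The mouse number pairs the regions of a mouse. Deviations from the group means of same-mouse sums correlated by -0.112 to 0.457 (median 0.16, 36 of 54 above 0.1, over 2000 genes). Alternatives were DESeq2 1.42.0, no TMM, no filter, removal of a spline trend on gene length and GC content, thinning of sums to equal mean UMIs per nucleus, a stricter gate, 6 mice only, the mouse as a block and each mouse left out.

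Genes were named by rule: the 2 largest rises and 2 largest falls of GF against SPF per type and region, the 2 members highest against other types, the 5 highest and 3 lowest per kb, the largest interaction per type, members with no UMI, and the extremes of the related lists. Other genes named in lists of members or levels, Mtif3 in excitatory neurons, Dap3, Mrps18c and Mrpl45 between regions, and Mrps33 and Mrps9 for CGF mice were chosen after their values were seen. The members and lists were chosen with earlier results of these data known.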

Additional observations from a re-analysis of the deposited data

Results flagged for a closer look

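Among the genes named by rule, 13 members had a difference between GF and SPF mice that was not the same in Hip and PFC in at least 1 type, by the test of the interaction of group and region (log2 difference of the fold changes, Hip minus PFC, edgeR adjusted p under the threshold). Over all members this test passed in 106 of 430 tests. Among members with a larger value in Hip, Mrpl24, which was higher in GF mice of Hip and lower in those of PFC, differed by 2.27 in excitatory neurons, 2.39 in interneurons, 2.75 in OPCs and 1.98 in oligodendrocytes. Mrps15 differed by 1.99 in excitatory neurons, 1.87 in interneurons, 2.36 in OPCs and 1.95 in oligodendrocytes. Mrpl44 differed by 2.23 in excitatory neurons and 2.27 in interneurons, Mrpl11 by 1.84 in interneurons and 1.69 in astrocytes, and Mrpl41 by 1.81 in interneurons. In astrocytes Mrps22 differed by 2.57 and Mrpl37 by 2.51, and in excitatory neurons Mrps9 by 0.25.

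Other members had the larger value in PFC. Mrps12 differed by -0.83 in excitatory neurons, -1.16 in interneurons, -1.70 in astrocytes, -2.29 in oligodendrocytes and -2.60 in microglia. Mrps14 differed by -1.44 in astrocytes and -0.82 in interneurons, Mrps10 by -0.82 and Mrpl1 by -0.33 in excitatory neurons, and Mrpl50 by -3.65 in oligodendrocytes. Mrps12 in microglia and Mrpl50 in oligodendrocytes were below the filter on low counts in PFC and entered this fit through other groups, with SPF mice of PFC at 7.98 and 1.25 TMM-scaled CPM, so these values rest on few UMIs. The first lost the threshold without GF mouse 5 or 7 or any 1 SPF mouse (-3.13 to -2.25), and the second without SPF mouse 31 (-2.92). In PFC the SPF and CGF libraries were shallower than the GF libraries, and the part of depth in these values was not tested.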

How the results depend on the processing

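With the trend on gene length and GC content removed, calls among members went from 299 to 157 for GF against SPF in Hip, from 307 to 175 for GF against CGF in Hip and from 41 to 24 for Hip against PFC in GF mice. For CGF against SPF in Hip, where 1 was called, DESeq2 gave 2, the fit without a filter 3, and removal of the trend and the 6 mice alone 0, and in PFC, where 0 were called, the fit without a filter gave 1. Leaving out each mouse in turn gave 0 to 1 calls for CGF against SPF in Hip, 0 to 2 in PFC (2 without CGF mouse 18) and 5 to 50 for Hip against PFC in GF mice. With no replicate block, that is no library term, calls between cell types went from 265 to 137 in Hip and from 163 to 83 in PFC. The mouse as a replicate block gave 110 calls for the interaction in place of 106, 56 in place of 41 for Hip against PFC in GF mice and 148 in place of 137 in SPF mice. No paired analysis was possible for groups within a region because each group holds other mice.

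Other totals of calls stayed within 1.5 times of the reported ones, but their split by direction did not always hold. With the trend removed, GF against CGF in PFC went from 98 higher and 50 lower to 70 and 74, with a median log2 fold change of members from 0.23 to -0.01, GF against SPF in PFC from 109 and 46 to 78 and 77, and cell types in Hip from 145 and 120 to 98 and 117. With no library term the last became 54 and 83. Without SPF mouse 32, Hip against PFC in SPF mice went from 45 higher and 92 lower to 25 and 81. In the interaction, the 16 calls toward PFC became 8 without SPF mouse 32, 9 without GF mouse 5 and 10 without GF mouse 7 or without TMM. None of the 66 values of named genes changed sign under the alternatives run. Without TMM the median of all genes moved from 0.04 to 0.19 in Hip and from 0.01 to -0.13 in PFC excitatory neurons (GF against SPF), where members were at 1.04 and 0.02. Of those 66 values, 6 lost the threshold with the trend removed, each in Hip (Mrps9 in both neuron types, Mrpl1 in astrocytes, Mrpl24 in OPCs, Mrpl11 and Mrps16 in microglia). Other settings cost calls too. Against other types, Mrpl1 in Hip excitatory neurons lost it without TMM and Mrpl34 in PFC oligodendrocytes with no library term. Mrpl52 in Hip OPCs lost it with the stricter gate and with no library term. Mrpl24 in PFC oligodendrocytes (GF against SPF) lost it with DESeq2, with no filter, with the stricter gate and with thinning. It also lost it without GF mouse 5 or 7 or SPF mouse 30 or 31. In these settings it was at -1.18 to -0.816 on the log2 scale (edgeR or DESeq2 adjusted p = 0.0504 to 0.21). Few UMIs limit glia of PFC, where 3 members could be tested in microglia. There SPF and CGF mice had both shallower libraries and fewer microglial nuclei (79 to 169 a mouse, against 292 to 347 in GF mice).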
